A study of Mus musculus with 6 samples.

Results

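Chemokines are small secreted proteins that steer leukocytes through G protein-coupled receptors on the cells they attract. CXC and CC chemokines differ in the spacing of their first conserved cysteines. In the liver they come from hepatocytes, sinusoidal endothelium, stellate cells and Kupffer cells, the resident macrophages, and several are induced by interferon-gamma or by NF-kB. Levels of 10 such ligands were followed here, of 16727 genes used: Cxcl13, Cxcl1, Cxcl9, Cxcl10, Cxcl12, Cxcl16, Ccl5, Ccl6, Ccl9 and Ccl24. They were chosen by symbol, with earlier results of the same comparison known, so their differences between groups are given as a description and carry no test.

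The livers came from 6 refed wild-type C57BL/6 F1 males on normal chow. In the 3 conF1-M mice the father had drunk normal water, and in the 3 iAsF1-M mice the father had drunk inorganic arsenic (iAs, as sodium arsenite) before mating with an unexposed female. Neither group of offspring drank iAs. The labels give no father, litter or age for each liver, so mice that share a father or litter cannot be told apart from independent ones. The comparison asks how the liver transcriptome of F1 males differs after paternal exposure. Values are FPKM, fragments scaled to transcript length and library total, and differences are on the scale log2(FPKM + 1), which understates the difference of low genes. Of the 9695 genes whose mean FPKM reached 1, 6 passed an adjusted p of 0.05 in limma, 2 of them higher and 4 lower in iAsF1-M livers, and the median difference of all tested genes was -0.07. Depth could not be fixed from the FPKM: 1 estimate put the libraries at 21650000 to 23650000 fragments and another at 10000000 to 11950000, so numbers of fragments below are approximate. The liver iAsF1-M 3 stood apart in its macrophage genes, as described with Cxcl13, and each member's difference is given with its range when 1 liver at a time was left out. In bulk liver, fewer cells of a type and less RNA per cell cannot be told apart.

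The bases before a gene's start are shown for Cxcl13, the member whose level varied most, and for Cxcl1 and Cxcl10, which hold matches to motifs of inflammatory factors. RefSeq sequences (GRCm38.p6) were matched for 7 of the 10 members, namely Cxcl13, Cxcl1, Cxcl9, Cxcl10, Cxcl12, Ccl6 and Ccl9. The 250 bases before the annotated start lie at chr5:95956689-95956938 on the plus strand for Cxcl13, at chr5:90890995-90891244 on the plus strand for Cxcl1 and at chr5:92348890-92349139 on the minus strand for Cxcl10. Capitals mark matches on either strand to the NF-kB consensus or to the core of the interferon-stimulated response element.
Cxcl13: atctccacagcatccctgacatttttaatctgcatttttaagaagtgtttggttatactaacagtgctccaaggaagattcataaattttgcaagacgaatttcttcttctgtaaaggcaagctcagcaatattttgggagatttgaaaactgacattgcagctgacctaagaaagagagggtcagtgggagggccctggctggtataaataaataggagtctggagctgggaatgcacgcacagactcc
Cxcl1: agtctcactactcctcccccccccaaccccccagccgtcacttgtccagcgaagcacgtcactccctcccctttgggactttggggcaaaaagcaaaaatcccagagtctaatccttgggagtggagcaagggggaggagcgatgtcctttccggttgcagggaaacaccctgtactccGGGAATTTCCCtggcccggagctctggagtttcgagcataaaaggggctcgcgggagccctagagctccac
Cxcl10: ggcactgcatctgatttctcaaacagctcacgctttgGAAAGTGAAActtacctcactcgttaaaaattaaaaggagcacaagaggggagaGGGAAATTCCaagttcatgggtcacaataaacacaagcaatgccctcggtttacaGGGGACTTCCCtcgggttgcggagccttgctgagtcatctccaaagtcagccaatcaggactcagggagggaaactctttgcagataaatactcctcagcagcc

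The NF-kB consensus was matched before 3 of the 7 members, Cxcl1, Cxcl10 and Ccl9, and in 7.25% of 32851 regions of the same length before all RefSeq genes. In Cxcl1 the capitals hold overlapping matches on opposite strands, GGGAATTTCC and GGAATTTCCC, which start 71 and 70 bases before the gene. In Cxcl10 the matches were GGGAAATTCC, 159 bases before the gene, and the overlapping GGGGACTTCC and GGGACTTCCC. The response element core was matched before 1 member, Cxcl10, as GAAAGTGAAA, and in 2.98% of all regions. The GAS element TTCNNNGAA was matched before 0 of the 7 members and in 7.02% of all regions. Cxcl13, in lower case throughout, held none of the 3 motifs in this window. A match is only a match of letters.

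Positions are from the GENCODE annotation of GRCm38. Chromosome 5 holds 5 of them: Cxcl1 at 90891241 to 90893115, Cxcl9 at 92321347 to 92328079, Cxcl10 at 92346638 to 92348889, Cxcl13 at 95956951 to 95961068 and Ccl24 at 135569937 to 135573049. Cxcl9 and Cxcl10 are 18558 bases apart. Chromosome 11 holds 4: Cxcl16 at 70453983 to 70459984, Ccl5 at 83525778 to 83530518, Ccl9 at 83572919 to 83578636 and Ccl6 at 83587882 to 83593087. Cxcl12 lies on chromosome 6 at 117168535 to 117181367. Cxcl10 overlaps Art3, Cxcl16 overlaps Zmynd15 and Ccl6 overlaps E230016K23Rik, each on the other strand. Whether the counting used strand is not given in the sources used here, so reads of these pairs may be shared.

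Cxcl12, the homeostatic ligand of CXCR4 that retains leukocytes and progenitors in tissues, was by far the most abundant chemokine transcript. It stood at 146.3, 149.5 and 124.2 FPKM in the conF1-M livers and at 133.0, 115.2 and 124.2 FPKM in the iAsF1-M group, or 140 ± 13.8 and 124 ± 8.91 FPKM (SD, n = 3 each). The groups overlapped, and the difference was -0.17 (SE 0.11) on the log2 scale, and -0.25 to -0.12 with a liver left out. Ccl9 and Ccl6, CC ligands of CCR1 known in rodents, followed with means over all livers of 17.6 ± 4.58 and 6.48 ± 1.69 FPKM (SD, n = 6). Each of these steps held in 6 of 6 livers, and the ranges did not meet. Below them, Cxcl13, Ccl5, Cxcl9, Cxcl1, Cxcl16, Cxcl10 and Ccl24 had means between 2.84 and 1.11 FPKM, and the ranges of all neighbours in that order met. The last step, from Cxcl10 at 2.19 ± 0.713 to Ccl24 at 1.11 ± 0.479 FPKM (SD, n = 6), held in 5 of 6 livers. The other steps from Cxcl13 down held in 2 or 3 of 6. FPKM are scaled by length, so levels can be set beside each other across these genes.

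**Figure D1:**
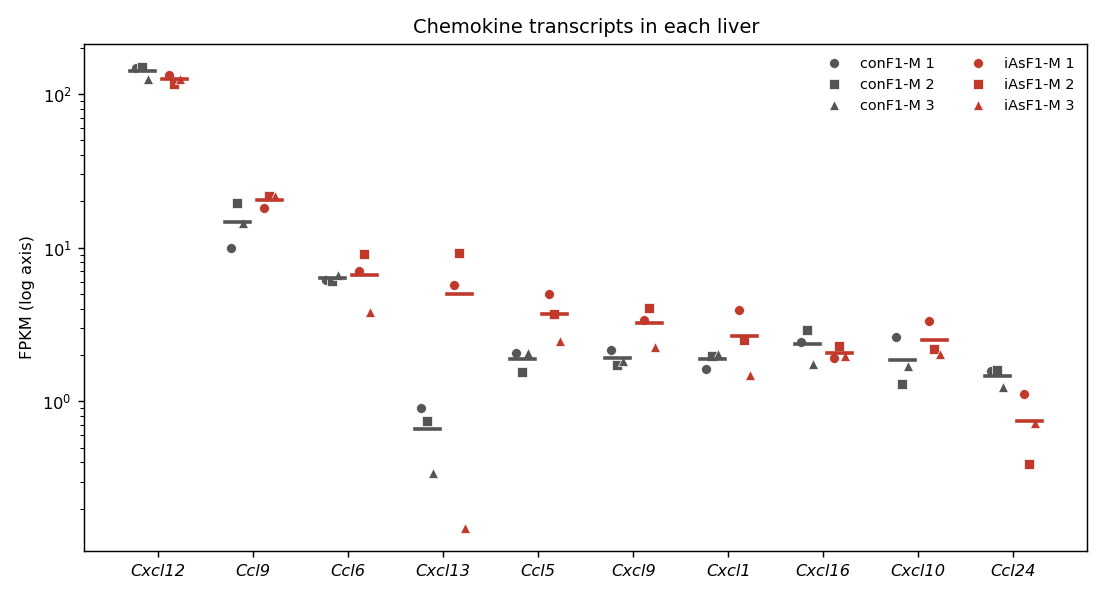
FPKM of the 10 chemokines in each liver on a log axis, ordered by mean level, with 1 symbol per liver and a bar at each group's mean (n = 3). Cxcl12 lies between 115.2 and 149.5 FPKM in all livers, while Cxcl13 runs from 0.15 to 9.20 FPKM within the iAsF1-M group.

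Cxcl12 made up 73.2% to 76.3% of the summed FPKM of 33 measured chemokine ligands in the conF1-M livers and 62.7% to 70.5% in the iAsF1-M livers. The ranges did not meet. The sum of the other ligands was 45.4, 54.2 and 45.5 FPKM in the conF1-M livers against 64.8, 68.4 and 52.0 FPKM in the livers of iAsF1-M mice. In iAsF1-M 3 that sum was below that of conF1-M 2. The share holds members chosen with this comparison known and is a description.

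**Figure D2:**
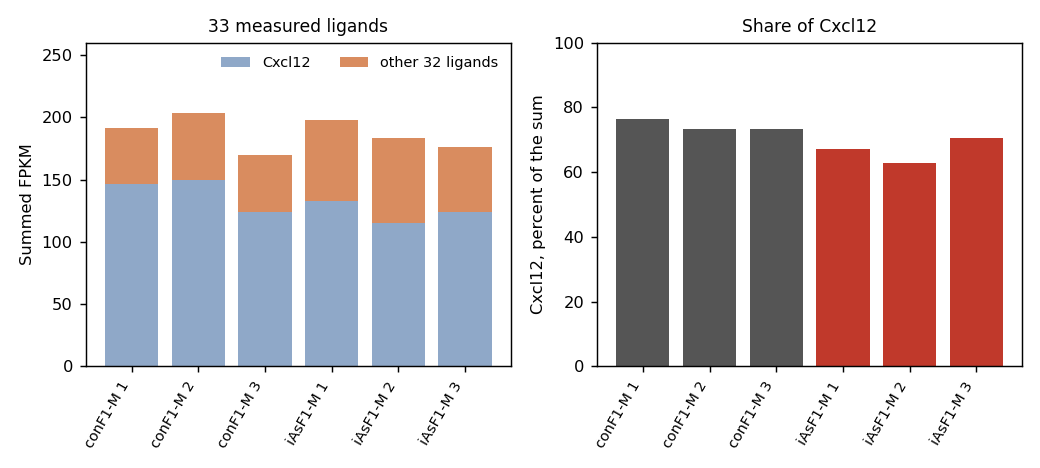
Left, summed FPKM of 33 chemokine ligands in each liver, split into Cxcl12 and the others; right, the percent of that sum from Cxcl12, on an axis from 0. The share of Cxcl12 is at least 73.2% in the conF1-M livers and at most 70.5% in the iAsF1-M livers.

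Cxcl13, which draws B cells through CXCR5, varied most. The conF1-M livers held 0.90, 0.74 and 0.34 FPKM. The iAsF1-M livers held 5.72, 9.20 and 0.15 FPKM. So iAsF1-M 1 and 2 were the highest of all livers and iAsF1-M 3 the lowest, and the groups overlapped. The means were 0.66 ± 0.288 and 5.02 ± 4.57 FPKM (SD, n = 3 each), and the difference was 1.38 (SE 0.71) on the log2 scale. The highest liver stood 61.3 times above the lowest. On the log2 scale its SD within the iAsF1-M group, 1.67, was larger than that of 99.9% of tested genes, and its SD within conF1-M livers, 0.26, was larger than that of 93.8%. Values this low rest on few fragments: about 4 in iAsF1-M 3 against 248 in iAsF1-M 2 on the deeper estimate of depth, and 2 against 106 on the shallower. The difference was 0.76 without iAsF1-M 2 and 2.33 without iAsF1-M 3. Cxcl13 passed the filter on low values only through the iAsF1-M group, since its conF1-M mean lay under 1 FPKM.

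Some macrophage genes followed the order of Cxcl13 across the livers. Marco, a scavenger receptor of macrophages, stood at 1.28, 1.60 and 1.21 FPKM in the conF1-M livers against 10.2, 28.4 and 0.82 FPKM in the livers of iAsF1-M mice. Its order among the iAsF1-M livers was that of Cxcl13. The difference of Marco was 1.84 (SE 0.85), with an adjusted p of 0.62 in limma, and ran from 0.94 to 2.94 with a liver left out. The 2.94, with an adjusted p of 0.017, came without iAsF1-M 3, a choice made after the data were seen. Without that liver 72 genes passed, against 6 over all livers. The other 12 Kupffer cell markers summed to 184, 173 and 161 FPKM in the conF1-M livers against 168, 220 and 100 FPKM in the livers of iAsF1-M mice, with 0 of the 13 at 0 FPKM in every liver. Of those 12, 11 were lowest in iAsF1-M 3 and 8 were highest in iAsF1-M 2. Clec4f, the marker held most specific to Kupffer cells, was at 23.7, 21.5 and 19.2 FPKM in conF1-M and at 15.1, 18.7 and 12.49 FPKM in iAsF1-M livers (adjusted p = 0.58). Of all 13 tested, 9 had a negative difference and 4 a positive one, with a median of -0.08, where 69.6% of tested genes were negative. An unadjusted p under 0.05 was found for 1, where 8.17% of tested genes had one. Across the 6 livers, Pearson's r with Cxcl13 was 0.98 for Marco, 0.93 for the macrophage receptor Adgre1 and -0.02 for Clec4f. For the other markers r ran from 0.25 to 0.78. These values share libraries and depth, and the part of macrophages in the level of Cxcl13 was not tested.

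**Figure D3:**
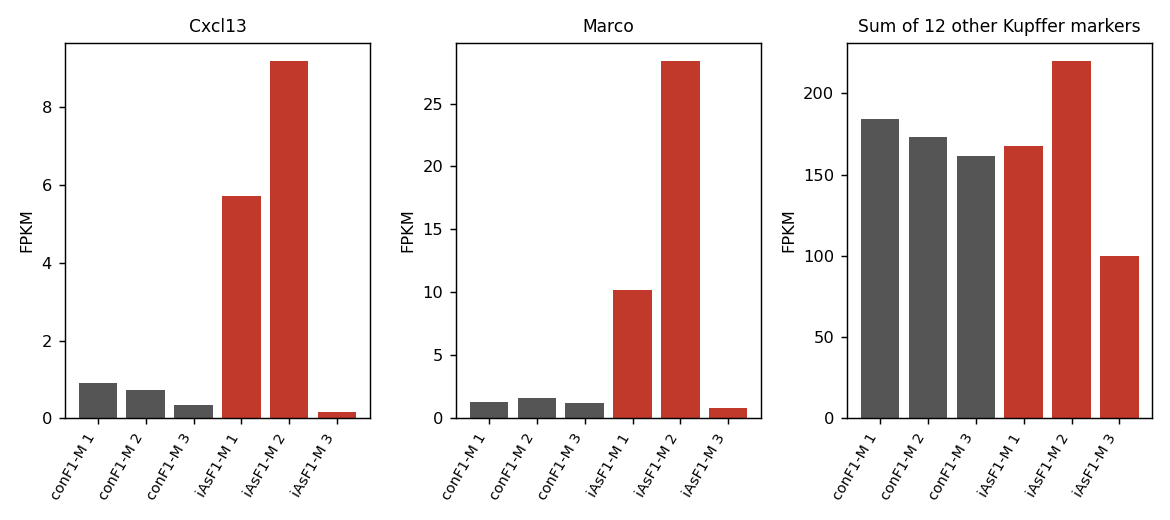
FPKM of Cxcl13, of Marco and of the sum of 12 other Kupffer cell markers in each liver, on axes from 0, with conF1-M livers in grey and iAsF1-M livers in red. Cxcl13 and Marco are highest in iAsF1-M 2 and lowest in iAsF1-M 3, and the marker sum runs from 100 to 220 FPKM in the same livers.

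Transcripts of the receptor of Cxcl13 and of most B cell markers were low in these livers. Cxcr5, its receptor on B cells, stood at 0.17, 0.08 and 0.13 FPKM in the conF1-M livers against 0.15, 0.06 and 0.06 FPKM in the livers of iAsF1-M mice. Of 11 measured B cell markers, 9 had means under 1 FPKM and 9 had a lower mean in iAsF1-M than in conF1-M livers, as did 66.3% of the 16727 genes. Cd79a, part of the B cell receptor, was at 1.75, 1.08 and 1.24 FPKM in conF1-M and at 0.72, 0.73 and 0.76 FPKM in iAsF1-M livers. It was lower with no overlap, as were 11.8% of tested genes, and its adjusted p in limma was 0.56. Jchain, made by plasma cells, was at 0.80, 0.53 and 0.72 FPKM in conF1-M and at 1.03, 3.59 and 1.42 FPKM in iAsF1-M livers (adjusted p = 0.59). Cd79a passed the filter only through the conF1-M group, with means of 1.36 in conF1-M and 0.74 FPKM in iAsF1-M livers. Jchain passed only through the iAsF1-M group, with means of 0.68 in conF1-M and 2.01 FPKM in iAsF1-M livers. Nothing is read from their p-values. The markers Ms4a1 and Pax5 lay at or under 0.41 FPKM in every liver.

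Cxcl9 and Cxcl10, interferon-induced ligands of CXCR3 that attract T and NK cells, differed from each other in whether the groups met. Cxcl9 stood at 2.14, 1.73 and 1.83 FPKM in the conF1-M livers against 3.38, 4.07 and 2.26 FPKM in the livers of iAsF1-M mice. All iAsF1-M livers were above all conF1-M livers, by a small gap for iAsF1-M 3. The difference was 0.53 (SE 0.16), and 0.38 to 0.70 with a liver left out. Cxcl10 stood at 2.61, 1.29 and 1.69 FPKM in the conF1-M livers against 3.32, 2.19 and 2.03 FPKM in the livers of iAsF1-M mice, where conF1-M 1 lay among the iAsF1-M livers. Its difference was 0.30 (SE 0.20), and was 0.14 without iAsF1-M 1. Leaving out conF1-M 2 gave 0.15, and leaving out conF1-M 1 gave 0.48. Their receptor Cxcr3 was between 0.05 and 0.36 FPKM in all livers. Of the 13 tested genes of the interferon-gamma list, 0 passed the adjusted threshold in limma and 4 had an unadjusted p under 0.05, with a median difference of 0.06. Gbp3 and Gbp2, guanylate-binding GTPases induced by interferon-gamma, did not overlap between groups. Gbp3 was at 1.88, 1.69 and 1.70 FPKM in conF1-M and at 3.31, 3.06 and 2.73 FPKM in iAsF1-M livers (adjusted p = 0.30). Its adjusted p in limma was 0.048 without iAsF1-M 3, where 72 genes passed against 6 over all livers. Leaving out any other liver gave 0.47 to 0.95, and the choice of iAsF1-M 3 was made after the data were seen. Gbp2 was at 1.40, 1.34 and 1.26 FPKM in conF1-M and at 1.89, 2.44 and 1.74 FPKM in iAsF1-M livers (adjusted p = 0.57).

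Ccl5, a chemokine made by T cells, NK cells and other cells, stood at 2.06, 1.55 and 2.05 FPKM in the conF1-M livers against 4.99, 3.70 and 2.46 FPKM in the livers of iAsF1-M mice. All iAsF1-M livers were above all conF1-M livers, with iAsF1-M 3 closest to them. The difference was 0.68 (SE 0.19), between 0.49 and 0.88 when each liver in turn was left out. Of the 12 measured T and NK cell markers, 0 reached the filter, and their sum ran from 2.66 to 3.68 FPKM in conF1-M and from 2.65 to 4.41 FPKM in iAsF1-M livers. The part of these cells in the level of Ccl5 was not tested.

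Cxcl1, which attracts neutrophils through CXCR2, stood at 1.62, 1.97 and 2.02 FPKM in the conF1-M livers against 3.94, 2.51 and 1.48 FPKM in the livers of iAsF1-M mice. The iAsF1-M group held both the highest livers and the lowest. The difference was 0.29 (SE 0.23), and 0.04 to 0.54 with a liver left out. Cxcr2 lay between 0.11 and 0.24 FPKM in all livers, and S100a9, a neutrophil protein, was at 1.62 ± 0.439 and 1.15 ± 0.315 FPKM (SD, n = 3 each; adjusted p = 0.62). Of the 15 tested genes of the TNF, lymphotoxin and NF-kB list, 8 had a positive difference and 7 a negative one, with a median of 0.01. In limma 0 passed the adjusted threshold and 3 had an unadjusted p under 0.05, where 8.17% of tested genes had one. Il1r1, the interleukin-1 receptor, was at 4.92, 5.93 and 4.86 FPKM in conF1-M and at 8.35, 10.9 and 6.95 FPKM in iAsF1-M livers (adjusted p = 0.56). Ltbr, the lymphotoxin receptor that in lymphoid organs drives Cxcl13, was at 52.1, 48.1 and 45.1 FPKM in conF1-M and at 37.1, 39.1 and 42.9 FPKM in iAsF1-M livers (adjusted p = 0.59).

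Cxcl16, a membrane-anchored ligand of CXCR6 that ADAM10 releases, stood at 2.44, 2.92 and 1.76 FPKM in the conF1-M livers against 1.92, 2.29 and 1.98 FPKM in the livers of iAsF1-M mice. The groups overlapped, and the difference was -0.13 (SE 0.14). It was -0.01 without conF1-M 2 and -0.26 without conF1-M 3. Adam10 was at 6.39, 6.22 and 5.83 FPKM in conF1-M and at 5.67, 2.69 and 5.75 FPKM in iAsF1-M livers (adjusted p = 0.62). Of 10 tested genes for the processing and signalling of chemokines, 0 passed in limma, 0 had an unadjusted p under 0.05, and the median difference was -0.13. The difference was negative for 8 and positive for 2, where 69.6% of tested genes were negative. With no overlap, 5 were lower, against 11.8% of tested genes, and 0 were higher, against 2.37%. Gnai2, a G protein subunit downstream of the receptors, was at 47.9 ± 2.02 and 42.6 ± 3.36 FPKM (SD, n = 3 each; adjusted p = 0.62).

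Ccl6 stood at 6.19, 6.06 and 6.67 FPKM in the conF1-M livers against 7.06, 9.07 and 3.83 FPKM in the livers of iAsF1-M mice. As for Cxcl13, the highest livers and the lowest were all iAsF1-M. The difference was 0.00 (SE 0.24), and its sign turned with the liver left out (-0.23 to 0.30). Ccl9 stood at 9.97, 19.57 and 14.49 FPKM in the conF1-M livers against 18.09, 21.51 and 21.79 FPKM in the livers of iAsF1-M mice. Here iAsF1-M 3 was the highest and conF1-M 1 the lowest, and conF1-M 2 lay above iAsF1-M 1. The difference was 0.50 (SE 0.21), and 0.26 to 0.71 with a liver left out. Ccr1, the receptor named for both, was at or under 0.07 FPKM in every liver.

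Ccl24, which attracts eosinophils through CCR3, was the only member lower in all iAsF1-M livers. It stood at 1.58, 1.60 and 1.23 FPKM in the conF1-M livers against 1.12, 0.39 and 0.72 FPKM in the livers of iAsF1-M mice. The difference was -0.52 (SE 0.16), -0.67 to -0.37 with a liver left out, and -0.98 with a pseudocount of 0.1. Ccl24 passed the filter only through the conF1-M group, since its iAsF1-M mean was 0.743 ± 0.366 FPKM (SD, n = 3). Ccr3 was at or under 0.05 FPKM in every liver.

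**Figure D4:**
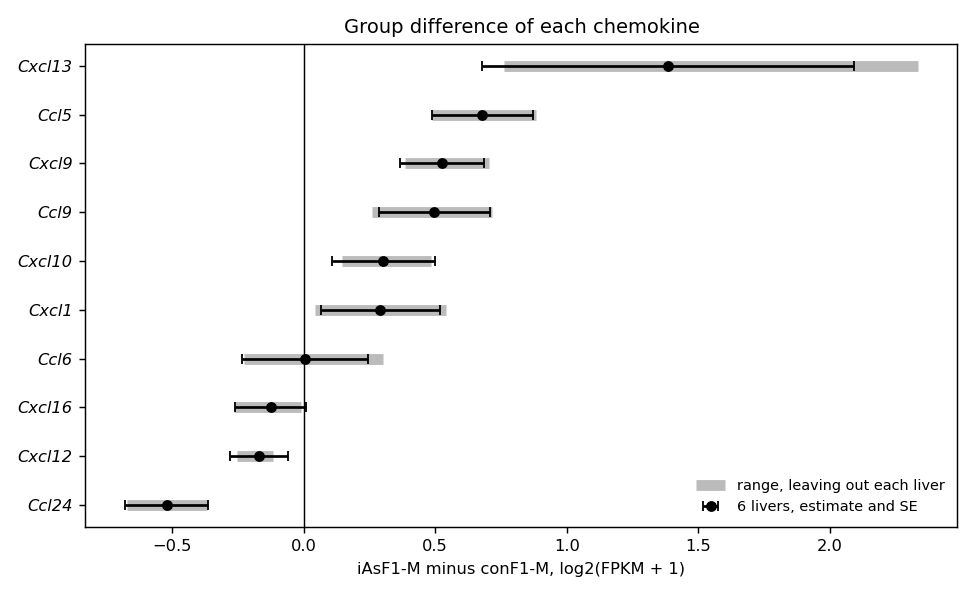
Difference between iAsF1-M and conF1-M livers in log2(FPKM + 1) for each chemokine, with the estimate and SE over 6 livers (points and bars) and the range when each liver in turn is left out (grey bands). Cxcl13 has the widest band, 0.76 to 2.33, and Ccl6 is the only member whose band spans 0.

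Counted over the members, 7 of 10 had a positive difference and 3 a negative one, with a median of 0.30. Of all tested genes, 69.6% had a negative difference, with a median of -0.07. As a description, 0 of 10 passed the adjusted threshold in limma, where 0.0619% of tested genes did, and 4 had an unadjusted p under 0.05, where 8.17% did. All iAsF1-M livers lay above all conF1-M livers for 2 members, Cxcl9 and Ccl5, against 2.37% of tested genes, and below for 1, Ccl24, against 11.8%. Cxcl13 and Ccl24 passed the filter only through the group where they were higher, and the members were chosen on this comparison, so nothing is read from these counts. The livers iAsF1-M 1 and 2 were the highest for 5 members, Cxcl13, Cxcl1, Cxcl9, Ccl5 and Ccl6. Without iAsF1-M 3, a choice made after the data were seen, those 5 lay above all conF1-M livers, where 8.10% of tested genes did. For those 5 this was fixed in advance, since they were picked with iAsF1-M 1 and 2 highest, so it adds nothing. Ccl24 lay below, as it did over all livers, where 27.4% of tested genes did. Without conF1-M 3, members below the remaining conF1-M livers numbered 3, where 25.9% of tested genes lay below.

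**Figure D5:**
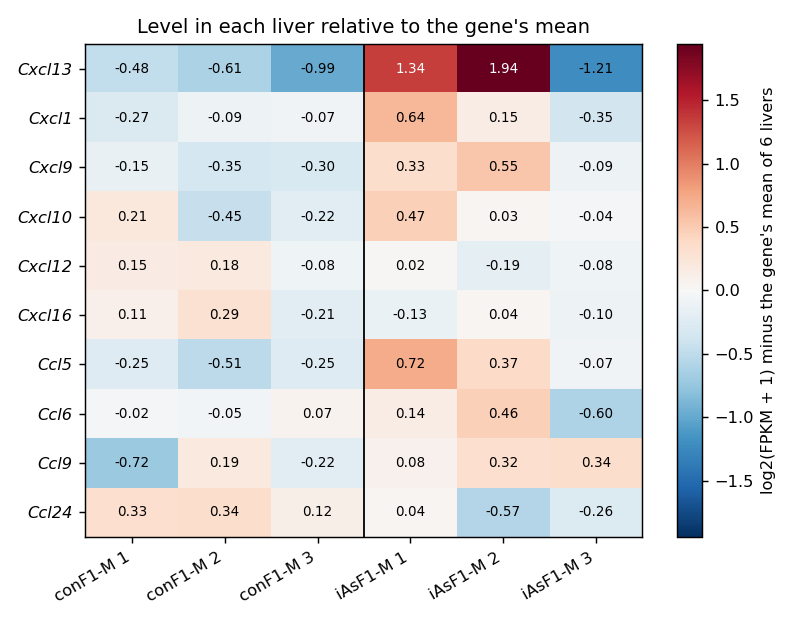
log2(FPKM + 1) of each chemokine in each liver minus the gene's mean over the 6 livers, with red above and blue below that mean and the value in each cell. Cxcl13 is at 1.34 and 1.94 in iAsF1-M 1 and 2 and at -1.21 in iAsF1-M 3.

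Most other chemokine ligands were near the floor of the measurement. Of 23 measured, 18 lay under 1 FPKM in every liver, 15 were listed at 0 in at least 1 liver, and 2 reached the filter. Ccl27a, best known from skin, was at 10.4, 10.6 and 8.66 FPKM in conF1-M and at 8.58, 7.05 and 9.94 FPKM in iAsF1-M livers (adjusted p = 0.66). Ccl25, a thymus and gut chemokine, was at 2.52 ± 0.466 and 2.48 ± 0.176 FPKM (SD, n = 3 each), with a difference of -0.01 that was positive under other scalings (0.04 to 0.05) and an adjusted p of 0.98. Of the 22 measured receptors, atypical ones included, 19 lay under 1 FPKM in every liver. The atypical receptors that clear chemokines were under the filter. Of them, Ackr1 and Ackr2 are named after their values were seen. Ackr1 was at 1.16, 0.96 and 1.14 FPKM in conF1-M and at 0.11, 0.70 and 0.38 FPKM in iAsF1-M livers. Ackr2 was at 0.46, 0.52 and 0.63 FPKM in conF1-M and at 0.96, 1.23 and 0.75 FPKM in iAsF1-M livers. Both showed no overlap, in opposite directions, while the other atypical receptors overlapped. Over all tested genes, 11.8% were lower in iAsF1-M livers with no overlap and 2.37% were higher.

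Markers of the other cell types that make chemokines were measured beside the members. In the sinusoidal endothelium, 11 of 12 tested markers had a negative difference, 7 did not overlap, 6 had an unadjusted p under 0.05 and 0 passed in limma, with a median of -0.25. Over all tested genes, 69.6% had a negative difference, 11.8% were lower with no overlap and 8.17% had an unadjusted p under 0.05. Dnase1l3, a secreted nuclease, was at 13.04 ± 1.07 and 8.60 ± 0.913 FPKM (SD, n = 3 each; adjusted p = 0.36), and Kdr, the receptor of VEGF, at 4.54 ± 0.643 and 3.18 ± 0.0503 FPKM (SD, n = 3 each; adjusted p = 0.56). The 9 tested stellate cell markers all had negative differences, as did 69.6% of tested genes, with a median of -0.26, 2 at an unadjusted p under 0.05 and 0 past the adjusted threshold in limma. Rgs5 was at 11.4 ± 0.862 and 8.59 ± 1.19 FPKM, and Lrat, which stores retinol, at 2.80 ± 0.420 and 1.90 ± 0.617 FPKM (SD, n = 3 each; adjusted p = 0.58 and 0.61). Of the 4 tested monocyte and dendritic cell markers, 0 passed in limma, 1 had an unadjusted p under 0.05, and H2-Ab1 and Cd74 of antigen presentation had differences of -0.80 and -0.68 (adjusted p = 0.58 and 0.61). Without iAsF1-M 3 these were -0.55 and -0.35, and without iAsF1-M 2 -1.08 and -1.03. Hepatocytes were the bulk of the tissue: the 9 hepatocyte markers had a median difference of 0.06, with 0 past an unadjusted p of 0.05 or the adjusted threshold in limma. Among them Asgr1 was at 296 ± 12.7 and 259 ± 36.4 FPKM (SD, n = 3 each; adjusted p = 0.63), and Tat had a difference of 0.70 that was -0.01 without iAsF1-M 2 (adjusted p = 0.69 over 6 livers). Spp1, the 1 tested cholangiocyte marker, had a difference of 0.30 (adjusted p = 0.77). The part of any of these cell types in the chemokine levels was not tested.

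The genes whose pattern over the 6 livers was most like that of Cxcl13 were picked as the extremes of the 9694 other tested genes by Pearson's r on log2(FPKM + 1), so r carries no p. Slc39a14, a zinc and manganese transporter, was nearest with r = 0.998 and stood at 29.7, 29.8 and 28.4 FPKM in conF1-M and at 35.3, 36.6 and 27.9 FPKM in iAsF1-M livers. Zbtb8b, the adaptor Fyb, the tRNA ligase gene Iars and the class I gene H2-Q4 followed with r of 0.994, 0.992, 0.990 and 0.990. Nrn1 was the most opposite with r = -0.996, at 111, 114 and 122 FPKM in conF1-M and at 77.0, 73.5 and 128 FPKM in iAsF1-M livers. Nfix, Cnp, the desaturase Fads1 and the lipogenic enzyme Acaca followed with r of -0.993, -0.992, -0.991 and -0.990. Without iAsF1-M 1 and 2, the livers farthest from the median of Cxcl13, r over the remaining 4 was 0.977 for Slc39a14, 0.850 to 0.930 for the other 4 alike genes, and -0.756 to -0.9995 for the opposite ones. The genes were picked on those same livers, where Cxcl13 rests on about 4 to 24 fragments on the deeper estimate, so these values are no independent check. Among the chemokines, Cxcl9 (r = 0.93) and Ccl5 (r = 0.82) had the highest Pearson's r with Cxcl13, while by Spearman's rho Ccl6 (0.83) and Cxcl1 (0.71) stood above both (0.60 and 0.54). These correlations share libraries and rest on 6 livers.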

How the data were processed

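Liver RNA-seq of 6 F1 males was used, 3 conF1-M and 3 iAsF1-M, grouped by the sample labels. Total RNA was extracted with Trizol and libraries were made with a TruSeq kit. The authors aligned paired-end reads with HISAT2 to GRCm38 and deposited FPKM with 2 decimals per gene and mouse; the program and annotation behind the FPKM are not given in the sources used here. The labels call the samples biological replicates. No counts could be recovered. Low values of genes that have a single transcript were assumed to fall on steps of 1 fragment, and the library size was sought from such steps with 2 estimators. The first gave 10000000 to 11950000 fragments, with 30.8% to 41.4% of low values within 0.15 of a whole number, and reached the lower end of its range in 2 libraries. The second, written after that answer was seen and with an earlier estimate of these data known, gave 21650000 to 23650000, with 45.9% to 55.0%, against 30% by chance. The depth is therefore approximate, and no count model was fitted.

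Of 16759 lines, the 16 identifiers on 2 lines were left out, and 16706 of the 16727 used had a name in the GENCODE annotation of GRCm38. log2(FPKM + 1) was fitted with limma 3.58.1 in R 4.3.3 (lmFit, eBayes with trend) over genes whose mean FPKM reached 1, without a block. P-values are two-sided and adjusted over all tested genes by Benjamini and Hochberg; an exact permutation test of 3 livers against 3 cannot go below 0.1. The fit was tested on simulated data. The members and the 218 genes of the lists, of which 208 were measured, were chosen with earlier results of these data known. The genes named were the members, tested ligands and receptors, Cxcr5 and B cell markers, the 2 smallest p of each other list, and the 5 genes most like and the 5 most opposite to Cxcl13. Some genes that this rule covers are not reported here. Motifs and figures were made with Python 3.11.15. Alternatives were other pseudocounts, filters, scalings, variance models, a replicate block and leaving out each liver.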

Additional observations from a re-analysis of the deposited data

How the results depend on the processing

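The number of changed genes, 6 of all tested, was 3 without a filter on low values, 5 with the replicate block, and between 3 and 72 when each liver was left out. The 72 came without iAsF1-M 3, and 3 without conF1-M 1 or conF1-M 2. Livers with the same number did not deviate together in every pair (r = 0.167, -0.102 and -0.021), so the numbers were not taken to pair the mice. Of the list genes, 0 passed over 6 livers and between 0 and 2 with a liver left out; the 2, Marco and Gbp3, passed without iAsF1-M 3. Of the members, 2 lay above all conF1-M livers, and between 2 and 5 with a liver left out, and 1 lay below, and between 1 and 3; these alternatives were chosen after seeing the data. The difference of Ccl24, -0.52, was -0.98 with a pseudocount of 0.1. The difference of Ccl25 was 0.043 with quantile normalization and 0.053 with median-of-ratios scaling, and ran from -0.12 to 0.072 with a liver left out. That of Tat was -0.0089 without iAsF1-M 2 and ran from -0.0089 to 1.09. The cause was not tested. Directions of the members held under the other scalings, filters and pseudocounts, apart from Ccl6, whose difference of 0.00 was negative with the smaller pseudocounts (-0.0079 and -0.0021). Low FPKM limit what can be told of Cxcl13 in its low livers and of most receptors.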
